A study of Mus musculus with 2 samples.

Results

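Irf1 and 9 interferon-inducible GTPase genes (Igtp, Irgm1, Iigp1, Gbp2, Gbp2b, Gbp3, Gbp5, Gbp6 and Gbp7) were followed across the cell types of the resolving mouse peritoneum. They are 10 of the 31053 genes in the deposited matrices, found by their symbols, and all 10 had UMIs (unique molecular identifiers, each standing for 1 captured transcript molecule) in both libraries. The genes were chosen with the difference between the libraries in macrophages already known, so the values of that comparison are a description. Total peritoneal cells were collected 3 days after 1 mg of zymosan, yeast cell walls that set off peritonitis without a live microbe, from mice aged 10 to 14 weeks. Both groups had received zymosan and both carried floxed CD36. Mice of the Cd36-/- library also carried LysM-Cre, a recombinase driven by the lysozyme M promoter, which is active in macrophages, neutrophils and other myeloid cells, and the strain label of the fl/fl library names no Cre. Each library was 1 pool of 4 replicates. With 1 library per group the differences below have no replicate check and were not tested. Intervals are exact at 95% and hold the error of counting alone, without any spread between mice.

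Interferon gamma, made mainly by NK cells and T cells, binds a receptor built from Ifngr1 and Ifngr2, and the kinases Jak1 and Jak2 pass the signal to the nucleus. There it acts through the GAS element in target promoters, and one early target is Irf1, a transcription factor that binds the related ISRE and acts on a second set of genes. Among these are the immunity-related GTPases (Igtp, Irgm1, Iigp1) and the guanylate-binding proteins (the Gbp genes), which coat or disrupt the vacuoles of intracellular microbes, and Irgm1 also restrains other GTPases of its family.

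The promoters are shown because the pathway acts through these elements. Promoter windows were taken from RefSeq (GRCm38.p6) for 8 of the 10 genes, and none was taken for Gbp6 or Iigp1. The 250 bases before each start were searched on both strands for the GAS letters TTCNNNGAA and the ISRE core, which is GAAA, 2 bases of any kind and GAAA (TTTC, 2 bases and TTTC where it lies on the other strand), and the letters found are in capitals. Of all 32851 RefSeq promoter windows of that length, 7.02% held the GAS letters and 2.98% the ISRE core. The ISRE core was in 7 of the 8 members' windows, all but that of Irf1, and the GAS letters were in 4, those of Irf1, Igtp, Gbp5 and Gbp7. Such a match is a description of letters and not a shown binding site. The whole windows are given for the 3 genes whose RefSeq start is also the annotated gene start: Irf1 (chr11:53769764-53770013, plus strand, GAS letters from 90 bases before the start), Igtp (chr11:58199306-58199555, plus strand, GAS letters 45 and ISRE core 34 bases before it) and Gbp2b (chr3:142594597-142594846, plus strand, ISRE core 137 bases before it).
Irf1: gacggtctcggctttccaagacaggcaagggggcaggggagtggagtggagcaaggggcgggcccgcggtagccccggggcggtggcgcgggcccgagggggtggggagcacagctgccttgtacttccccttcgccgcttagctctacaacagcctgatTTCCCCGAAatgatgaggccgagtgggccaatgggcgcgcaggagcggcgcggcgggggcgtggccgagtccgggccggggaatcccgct
Igtp: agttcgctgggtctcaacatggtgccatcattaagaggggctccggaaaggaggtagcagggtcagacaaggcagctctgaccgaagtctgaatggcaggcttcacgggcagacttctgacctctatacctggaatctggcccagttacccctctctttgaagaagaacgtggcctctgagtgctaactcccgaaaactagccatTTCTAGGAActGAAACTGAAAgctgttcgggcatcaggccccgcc
Gbp2b: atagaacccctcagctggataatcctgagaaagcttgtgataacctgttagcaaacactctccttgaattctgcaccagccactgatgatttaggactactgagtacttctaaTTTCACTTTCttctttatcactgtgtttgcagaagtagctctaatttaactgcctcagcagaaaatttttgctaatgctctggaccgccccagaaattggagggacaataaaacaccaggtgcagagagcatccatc
For 5 more members, 30 bases around the ISRE core are shown, 5′ to 3′ along the gene, so that the shared letters can be compared. They lie within chr11:48871421-48871670 (minus strand) for Irgm1, chr3:142620413-142620662 for Gbp2, chr3:142559794-142560043 for Gbp3, chr3:142496684-142496933 for Gbp5 and chr3:142530086-142530335 for Gbp7 (all plus strand).
Irgm1: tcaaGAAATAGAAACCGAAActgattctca
Gbp2: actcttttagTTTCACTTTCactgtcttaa
Gbp3: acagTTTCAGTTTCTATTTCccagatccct
Gbp5: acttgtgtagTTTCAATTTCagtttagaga
Gbp7: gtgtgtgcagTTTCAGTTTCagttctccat
In Irgm1 and Gbp3, 2 overlapping copies of the core make up the run of capitals.

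In the mm10 build, Irf1 lies on chromosome 11 (53770014 to 53778374, plus strand), as do Igtp (58199556 to 58207591, plus strand) and Irgm1 (48861968 to 48871683, minus strand). Gbp5 (142493978 to 142522344), Gbp7 (142530342 to 142550149), Gbp3 (142560026 to 142573209), Gbp2b (142594847 to 142619179) and Gbp2 (142620602 to 142638008) lie in 1 row on the plus strand of chromosome 3, and Gbp6 on chromosome 5 (105270702 to 105293698, minus strand). All 9 are protein-coding genes, and no position is given here for Iigp1. Near-identical copies can share reads in 3′ counting. Of the words of 50 bases in the transcript ends of Gbp6, 88.9% also occurred in Gm43302, Gbp10, Gbp9 or Gbp4, so Gbp6 is uncertain. The shares were 3.55% for Gbp2 (with Gbp2b), 2.74% for Gbp3 (with Gbp7), 1.99% for Irgm1, 0.432% for Gbp5 and 0 for the other members. Igtp shares 162 exon bases with its neighbour Irgm2 on the same strand.

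The Cd36-/- library held 116600732 UMIs in 16543 barcodes and the fl/fl library 117238057 in 15537, and 15023 and 14005 cells were used, with medians of 6570 and 6897 UMIs. In macrophages, Cd36 itself was at 171 against 242 CPM, and the labels do not say which exons were deleted, so 3′ UMIs may come from a deleted allele and check nothing. Cell types were rebuilt here by clustering without the members and named from markers, so each name means "like". The macrophages had Csf1r at 502 and 511 CPM and C1qa at 2136 and 2000 CPM, and held the T cell gene Cd3e at 1.44 and 1.16 CPM. Markers of other cells were not all so low in them. The B cell gene Cd79a was at 48.4 and 65.6 CPM, against 2472 and 2441 CPM in B cells. The neutrophil gene S100a8 was at 38.7 and 39.7 CPM, against 23625 and 35572 CPM in neutrophils. There were 9917 and 7875 macrophages, 2935 and 4237 B cells, 692 and 610 T cells, 527 and 356 NK cells, 299 and 391 type 2 conventional dendritic cells (cDC2) and 106 and 131 neutrophils. Levels are in CPM, the gene's UMIs scaled to the total UMIs of the cell class, counted per molecule and so comparable between genes without length scaling. Every log2 ratio divides the Cd36-/- level by the fl/fl level. Of the cell barcodes, 383 occurred in both libraries, 300 of them among the cells used, and none of the macrophage ratios of the members and of their sum moved outside its interval without them.

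Irf1, the transcription factor of the set, was higher in Cd36-/- macrophages. Its level was 44.3 CPM there (42.8 to 45.7, 3670 UMIs) against 25.9 CPM in fl/fl macrophages (24.7 to 27.1, 1914 UMIs), and these intervals did not overlap. The log2 ratio was 0.77 (0.69 to 0.85), which placed Irf1 at rank 8 from the highest among 4599 genes with at least 20 CPM in 1 library. Igtp, a GTPase also called Irgm3, had 21 and 12.2 CPM (0.79, 0.67 to 0.90) and stood at rank 7. Irgm1, the regulator of its family, differed less, with 21.1 and 16.6 CPM (0.35, 0.24 to 0.46). Iigp1, an effector GTPase that is loaded onto vacuoles, was rare, with 370 UMIs (4.46 CPM) against 102 UMIs (1.38 CPM), a log2 ratio of 1.69 (1.37 to 2.02).

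Of the guanylate-binding proteins, Gbp2, Gbp2b, Gbp3 and Gbp7 were the most abundant members, Gbp5 and Gbp6 were rare, and their ratios were unequal. Gbp2 had the highest level, 124 against 82.4 CPM (log2 ratio 0.59, 0.55 to 0.64). Gbp2b, known also as Gbp1, had 62.0 and 44.9 CPM (0.46, 0.40 to 0.53). Gbp3 and Gbp7 were nearly level between the libraries, with 5801 and 4558 UMIs of Gbp3 (0.18, 0.13 to 0.24) and 4233 and 3470 UMIs of Gbp7 (0.12, 0.06 to 0.19). Gbp5, which promotes inflammasome assembly, had 10.1 and 6.63 CPM (0.60, 0.44 to 0.77). Gbp6 had 100 and 43 UMIs (1.05, 0.52 to 1.60). The 9 GTPases together had 365 CPM (361 to 370) against 273 CPM (269 to 277), a log2 ratio of 0.42 (0.39 to 0.45).

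**Figure D1:**
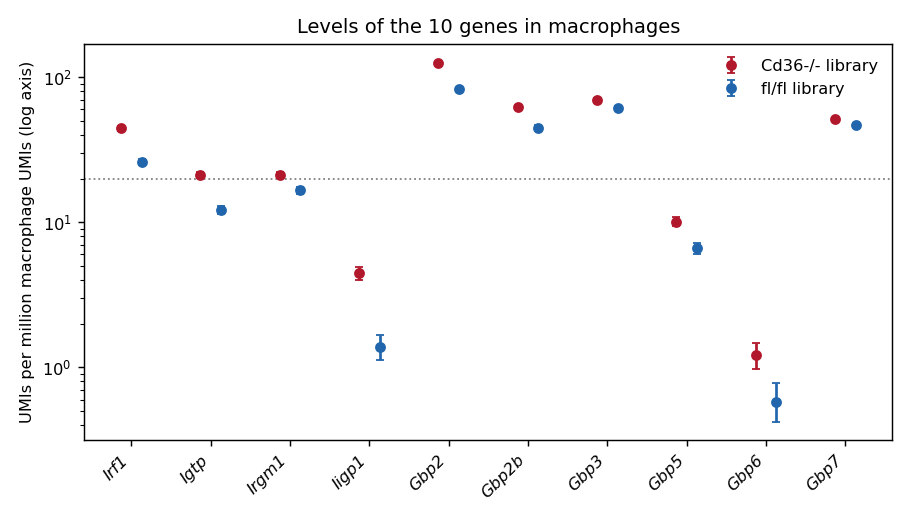
Levels of the 10 genes in macrophages of each library, in CPM on a log axis, with exact 95% Poisson intervals as bars; the dotted line is the limit of 20 CPM. Every gene is higher in the Cd36-/- library, from 51.1 against 46.9 CPM for Gbp7 to 4.46 against 1.38 CPM for Iigp1.

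Of the 10 members, 7 reached 20 CPM in macrophages of at least 1 library (Iigp1, Gbp5 and Gbp6 did not, and Igtp and Irgm1 reached it in the Cd36-/- library alone). All 7 were higher in the Cd36-/- library, against 46.3% of all genes compared. At least 1.5-fold higher were 3 of them (Irf1, Igtp and Gbp2), against 0.239% of all genes (11 of 4599), and none was 2-fold higher, against 0.0435%. Because this contrast chose the members, nothing is read from these counts. The median log2 ratio of the 7 was 0.46 and that of all genes -0.01. Just inside the limit of 1.5-fold was Gbp2 at 1.51-fold, which lay under it when doublets were kept, and just outside was Gbp2b at 1.38-fold. In the same macrophages the heat shock genes Hsph1 (10.8 and 20.1 CPM, -0.89), Hspa1a (9.90 and 15.1 CPM, -0.61) and Dnajb1 (29.3 and 38.6 CPM, -0.40), which respond to stress and cell handling, were lower in the Cd36-/- library, and their part in the results was not tested. Such genes did not all go this way. Atf3 was higher, at 22.4 and 15.5 CPM (0.53, 0.42 to 0.64), and of 10 immediate early and handling genes compared 4 were higher and 6 lower.

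The difference in Irf1 was larger in Gata6-low macrophages than in large peritoneal macrophages (LPM), which live in the cavity at rest and need the factor Gata6. In the 6048 and 4675 Gata6-low cells, Irf1 was at 49.2 and 26.5 CPM (0.89, 0.79 to 0.99), and in the 3740 and 3035 LPM at 35.5 and 24.8 CPM (0.52, 0.37 to 0.66). The intervals of the ratio did not overlap, but this rested on the Alox15 cluster of LPM described below. Without it Irf1 in LPM was at 40.3 and 26.0 CPM (0.63, 0.47 to 0.79), an interval that reaches that of Gata6-low cells, and the summed GTPases were at 420 and 311 CPM (0.43, 0.39 to 0.48). With 1 library per group the difference between the types was not tested. Gata6 itself was at 122 and 124 CPM in LPM and at 31.4 and 30.9 CPM in Gata6-low cells, so this marker was level between the libraries. The split came from clustering on many genes, and whether it was even between the libraries was not tested. In Gata6-low cells, all 7 members compared were higher (44.5% of all genes were) and 4 (Irf1, Igtp, Gbp2 and Gbp2b) at least 1.5-fold higher (0.456% of all genes were). Gbp2b was 2-fold higher, as 0.0651% of all genes were. Igtp, Irgm1 and Gbp2b reached 20 CPM there in the Cd36-/- library alone. In LPM all 5 compared were higher (48.4% of all genes were) and none reached 1.5-fold (0.286% of all genes did). Both types are parts of the macrophages on which the members were chosen, so nothing is read from these counts either. In the small MHC class II cluster of macrophages, 129 and 165 cells, Irf1 had 31 and 29 UMIs (0.35, -0.42 to 1.14), too few to place.

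Gbp2b was the member whose level depended most on the macrophage type. It was at 124 and 103 CPM in LPM (0.27, 0.19 to 0.34) and at 29.9 and 13.7 CPM in Gata6-low cells (1.12, 0.99 to 1.25), so its level was higher in LPM and its ratio higher in Gata6-low cells, where it was 0.85 with doublets kept. Gbp2 showed the reverse order of levels, at 143 and 89.4 CPM in Gata6-low cells (0.68, 0.62 to 0.73) and 91.3 and 70.5 CPM in LPM (0.37, 0.29 to 0.46). Iigp1 was more frequent in LPM, with 232 UMIs in 166 cells against 78 UMIs in 63 cells, than in Gata6-low cells, with 137 UMIs in 103 cells against 24 UMIs in 18 cells. Its log2 ratios there were 1.43 (1.06 to 1.82) and 2.33 (1.69 to 3.02). Igtp was at 18 and 9.33 CPM in LPM (0.95, 0.72 to 1.18) and 22.8 and 13.7 CPM in Gata6-low cells (0.73, 0.59 to 0.87), and the intervals of its ratio overlapped. Gbp3 was level in LPM, at 57.5 and 56.2 CPM (0.03, -0.07 to 0.14), and higher in Gata6-low cells of the Cd36-/- library, at 76.6 and 64.9 CPM (0.24, 0.17 to 0.31). Irgm1 had the same ratio in both types, 0.34, on 460 and 330 UMIs in LPM and 1263 and 875 UMIs in Gata6-low cells. These LPM ratios also depended on the Alox15 cluster. Without it Gbp3 in LPM was at 0.10 (-0.01 to 0.22), which reaches the interval of Gata6-low cells, and Irgm1 at 0.43 (0.20 to 0.66). Gbp2b was then at 0.51 (0.43 to 0.59) and Gbp2 at 0.47 (0.38 to 0.57), both still under the intervals of Gata6-low cells.

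Irf1 was higher in the Cd36-/- library in 8 of 8 macrophage clusters, with 5 intervals above 0, and Igtp in 8 of 8, with 7 intervals above 0. Irgm1 and Gbp5 were also higher in 8, Gbp2 and Gbp2b in 7, Gbp3 in 6 and Gbp7 in 5, with 2 intervals above 0. Iigp1 and Gbp6 were higher in 6, and the MHC class II cluster had 0 fl/fl UMIs of either. The clusters are parts of the macrophages on which the members were chosen, from the same 2 libraries, so they are not replicates. The share of all genes higher in as many clusters is not given, and nothing is read from these counts. The Irf1 ratio was largest in the Chil3 cluster, at 45.2 and 21.5 CPM (1.07, 0.88 to 1.26), and in the Folr2 cluster, at 55.5 and 28.1 CPM (0.98, 0.82 to 1.15). The Cx3cr1 cluster had the highest Irf1 level, 62.2 and 36.9 CPM (0.75, 0.55 to 0.96), and the largest ratio of the summed GTPases, 479 and 318 CPM (0.59, 0.52 to 0.66). The Alox15 cluster of LPM, 1092 and 797 cells, stood apart. There Irf1 was at 21.1 and 20.5 CPM (0.04, -0.33 to 0.41), Gbp2b was lower in the Cd36-/- library at 58.5 against 106 CPM (-0.86, -1.05 to -0.68), and the summed GTPases were lower at 220 against 266 CPM (-0.28, -0.38 to -0.17). Igtp was still higher in it, at 14.5 and 9.13 CPM (0.67, 0.16 to 1.19). The Marco cluster, the other large group of non-cycling LPM, had Irf1 at 41.8 and 26.6 CPM (0.65, 0.48 to 0.83) and Gbp2b at 154 and 113 CPM (0.45, 0.37 to 0.54). Without the Alox15 cluster, 4 of the 7 macrophage members were at least 1.5-fold higher (0.304% of all genes were), with a median of 0.63. This cluster was left out after its values were seen, so the higher count and median follow from that choice and are not read.

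**Figure D2:**
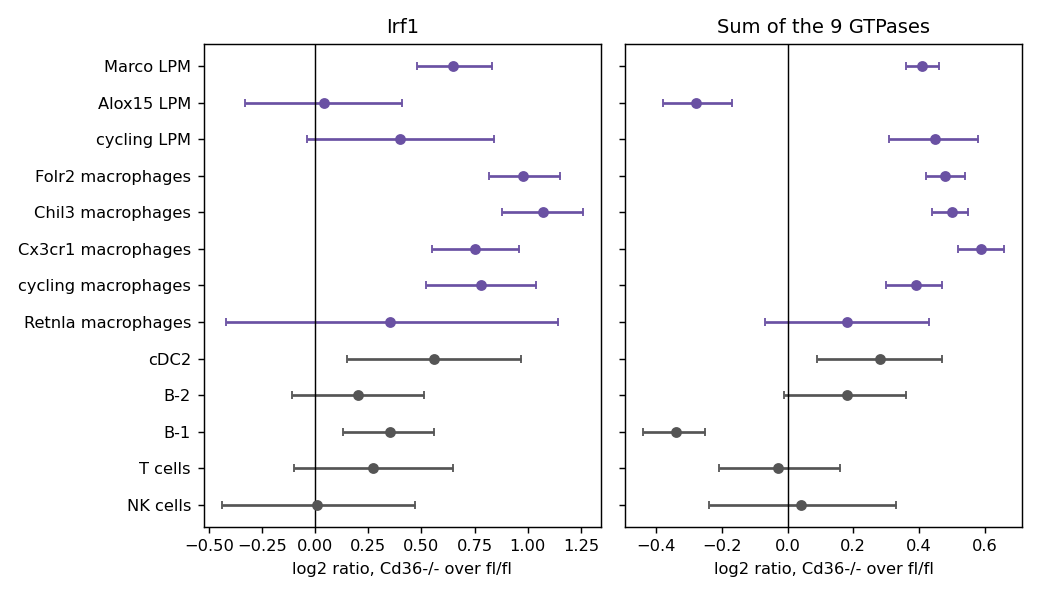
Log2 ratio (Cd36-/- over fl/fl) of Irf1 and of the summed GTPases in each macrophage cluster (purple) and in cDC2, B-2, B-1, T and NK cells (grey; neutrophils and classes of few cells are not drawn), with exact 95% intervals that cover counting error only. Irf1 points lie above 0 in every row drawn, near 0 in the Alox15 cluster (0.04) and NK cells (0.01), and the summed GTPases lie below 0 in the Alox15 cluster (-0.28), in B-1 cells (-0.34) and, with an interval across 0, in T cells (-0.03).

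Outside the macrophages, the members did not share 1 direction. In B-1 cells, which make natural antibodies in body cavities (1473 and 2054 cells), Irf1 was higher in the Cd36-/- library at 33 and 25.9 CPM (0.35, 0.13 to 0.56), while the summed GTPases were lower at 147 and 187 CPM (-0.34, -0.44 to -0.25). Gbp7 was at 36.2 against 58.4 CPM (-0.69, -0.87 to -0.51), Gbp3 at 34.9 against 43.6 CPM (-0.32, -0.52 to -0.13) and Gbp2 at 36.0 against 43.4 CPM (-0.27, -0.46 to -0.08). Of the 4 members compared in B-1 cells, 1 was higher (53.2% of all genes were) and 1, Gbp7, at least 1.5-fold lower (0.773% of all genes were). Igtp and Irgm1 were level there, with 137 and 217 UMIs of Igtp (0.12, -0.20 to 0.44) and 119 and 205 of Irgm1 (0.00, -0.34 to 0.33). In B-2 cells (1421 and 2130 cells), Irf1 was at 41.7 and 36.3 CPM (0.20, -0.11 to 0.51) and the summed GTPases at 111 and 98.0 CPM (0.18, -0.01 to 0.36), both with intervals that reach 0, and 3 of 3 members compared were higher, as were 55.9% of all genes.

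T cells had the most Igtp among classes of at least 50 cells per library other than neutrophils, with 153 and 151 UMIs in 692 and 610 cells (0.10, -0.23 to 0.44), which was 358% and 574% of the level in macrophages of the same library. Irf1 in T cells was at 64.4 and 53.3 CPM (0.27, -0.10 to 0.65) and the summed GTPases at 228 and 232 CPM (-0.03, -0.21 to 0.16), and Gbp7 was lower at 40.8 against 58.4 CPM (-0.52, -0.93 to -0.11). Of the 6 members compared in T cells, 3 were higher (62.4% of all genes were) and none at least 1.5-fold higher (4.37% of all genes were). NK cells had Irf1 at 75.4 and 74.6 CPM (0.01, -0.44 to 0.47) and the summed GTPases at 188 and 182 CPM (0.04, -0.24 to 0.33), and of 5 members 4 were higher (54.9% of all genes were) and none at least 1.5-fold higher (6.14% were). These intervals are wide, so differences of the size seen in macrophages were not detectable for most single members in NK cells.

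In cDC2, the dendritic cells that prime CD4+ T cells, Irf1 was at 40.5 and 27.5 CPM (0.56, 0.15 to 0.97) and Igtp at 30.8 and 14.4 CPM (1.10, 0.58 to 1.62), and 6 of 6 members compared were higher (57.9% of all genes were), 1 of them, Igtp, at least 1.5-fold (2.68% of all genes were). This class also held cells with B and T cell transcripts. At least 3 UMIs of Cd79a, Cd79b and Ms4a1 were in 85 of the 299 and 105 of the 391 cells (28.4% and 26.9%), and at least 2 UMIs of Cd3d, Cd3e and Cd3g in 54 (18.1%) and 45 (11.5%). Without these cells Igtp had 19 and 25 UMIs (0.50, -0.44 to 1.42), and Irf1 had 39 and 59 UMIs (0.30, -0.33 to 0.90), so both intervals then reached 0. The summed GTPases were at 162 and 133 CPM with these cells (0.28, 0.09 to 0.47) and at 162 and 126 CPM without them (0.36, 0.08 to 0.64). In macrophages such cells were 6.94% and 12.2%, and without them Irf1 stayed at a log2 ratio of 0.77 (0.69 to 0.86) and the summed GTPases at 0.43 (0.41 to 0.46).

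**Figure D3:**
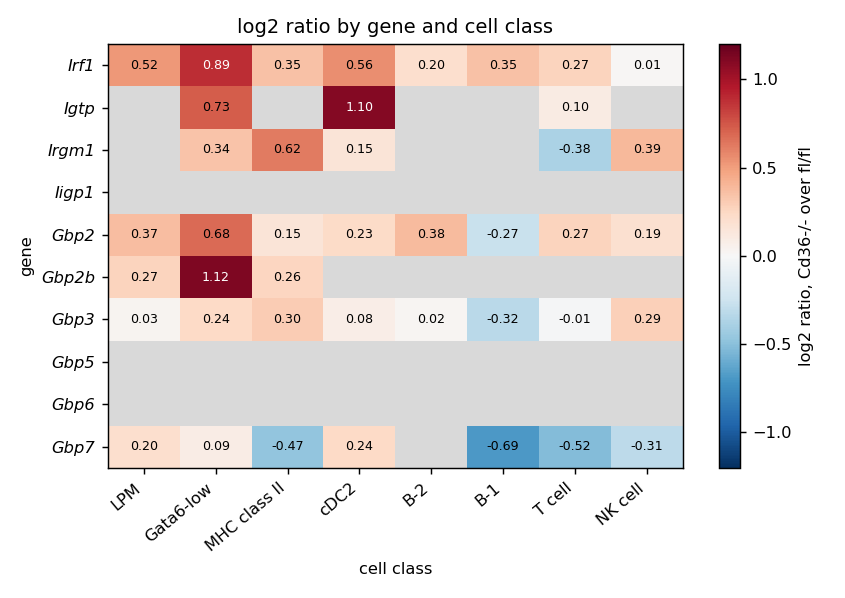
Log2 ratio (Cd36-/- over fl/fl) of each gene in each cell class with at least 50 cells per library other than neutrophils; red is higher and blue lower in the Cd36-/- library, and grey marks genes under 20 CPM in both libraries. Gata6-low macrophages hold 0.89 for Irf1 and 1.12 for Gbp2b, and Gbp7 is negative in B-1 cells (-0.69), in T cells (-0.52) and, with intervals across 0, in NK cells (-0.31) and MHC class II macrophages (-0.47); the cDC2 value of Igtp (1.10) is 0.50 without cells that carry B or T cell UMIs, and the coloured MHC class II squares rest on 21 to 80 UMIs per library.

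By level, Irf1 was highest in NK and T cells among classes of at least 50 cells per library other than neutrophils. Their intervals overlapped, and both lay above B-2 cells, cDC2 and LPM in both libraries. The intervals of B-1 cells and LPM overlapped in both libraries. B-2 cells and cDC2 were at 41.7 and 40.5 CPM in the Cd36-/- library, and at 36.3 (31.7 to 41.3) and 27.5 CPM (22.5 to 33.2) in the fl/fl library. Gata6-low macrophages were at 49.2 CPM in the Cd36-/- library, above LPM, and at 26.5 CPM in the fl/fl library, level with LPM. Neutrophils had 11 and 17 Irf1 UMIs in all (120 and 140 CPM) and a median of 720 and 906 UMIs per cell, near the lowest depth in the files, and 33.4% of all genes compared there were at least 1.5-fold higher, so they are not read further. The GTPase sum had another order: LPM (371 and 302 CPM) and Gata6-low macrophages (365 and 259 CPM) led, and B-2 cells (111 and 98.0 CPM) were lowest among classes of at least 50 cells per library.

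Free RNA can carry macrophage transcripts into other droplets. The C1q genes, which macrophages make, were at 6.25% and 4.64% of their macrophage level in B cells. Iigp1 there was at 6.62% and 3.09%, near the level of free RNA, and is not read as B cell expression. Gbp2b was at 7.04%, near that level, in the Cd36-/- library and at 11.2%, above it, in the fl/fl library. Irf1 was at 79.6% and 108% of its macrophage level in B cells, and Gbp7 at 59.2% and 96.3%, far above it. B cell markers in macrophages were at 2.06% and 2.78% of their B cell level.

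Counted by cell, the GTPases were spread over more macrophages in the Cd36-/- library and not carried by a few. Cells were thinned to 2000 UMIs each so that depth did not set the share, which left out 343 and 338 macrophages. An Irf1 UMI was then in 8.31% of Cd36-/- macrophages (7.77 to 8.89) and 5.23% of fl/fl macrophages (4.74 to 5.75), and without thinning in 27.3% and 19.8%. At least 1 GTPase UMI was in 48.2% (47.2 to 49.2) and 39.9% (38.8 to 41.1), against 84.0% and 80.2% without thinning, and 3 or more were in 6.25% and 3.12%. Gbp2 was in 20.4% and 13.7% of the thinned macrophages, Gbp2b in 11.5% and 9.06%, Igtp in 4.03% and 2.56%, and Iigp1 in 0.888% and 0.318%. In B cells at the same thinned depth the share with a GTPase UMI was 22.2% and 24.3%. Thinning left out 702 and 618 B cells, most of them B-2 cells (677 and 607). The share was 24.3% and 30.8% in B-1 cells and 17.6% and 15.6% in B-2 cells. In the Cd36-/- library, thinned macrophages with 0, 1 and 2 or more Irf1 UMIs held GTPases at 374 CPM (365 to 383), 420 CPM (388 to 455) and 610 CPM (486 to 757), the last in 68 cells. In the fl/fl library they held 278 CPM (270 to 287), 332 CPM (292 to 376) and 333 CPM (182 to 559), the last in 21 cells. At this depth most cells had no Irf1 UMI, and the correlation across cells, 0.04 and 0.03, is no finding.

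**Figure D4:**
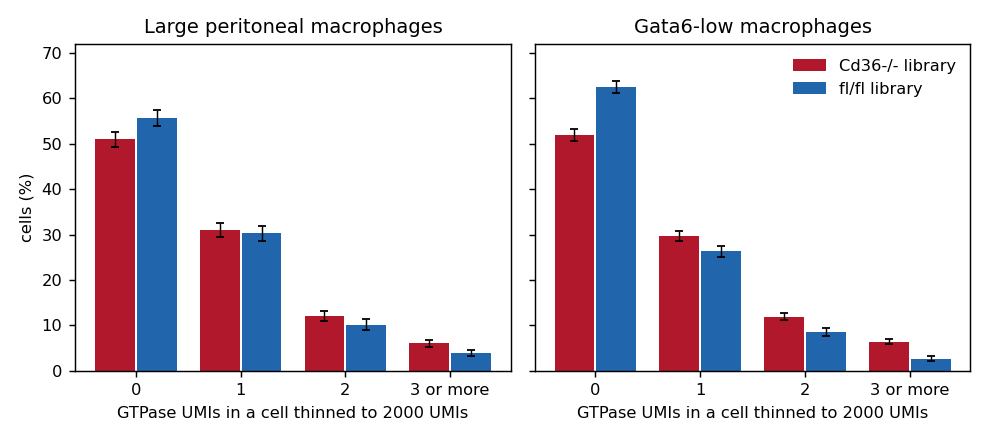
Share of cells (%) with 0, 1, 2 and 3 or more GTPase UMIs after thinning each cell to 2000 UMIs, in large peritoneal macrophages and Gata6-low macrophages of each library, with exact 95% Clopper-Pearson intervals. The share of Gata6-low cells with 0 UMIs is 52.0% against 62.5% (Cd36-/- first), and with 3 or more 6.45% and 2.64%.

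Upstream, the ligand was rare. Ifng had 2 and 3 UMIs in all macrophages, 22 and 16 UMIs in NK cells (17.1 and 16.6 CPM) and 16 and 5 UMIs in T cells, in 12 and 4 cells (7.87 and 2.32 CPM, log2 ratio 1.76, 0.25 to 3.57). That interval counts each UMI apart, yet 1 T cell held 4 of the 16 and 1 held 2 of the 5. By cell, Ifng was in 1.73% (0.899 to 3.01) and 0.656% (0.179 to 1.67) of T cells, and these intervals overlapped. None of the 8 ligands and inducers reached 20 CPM in macrophages, where Il18 led with 18.5 and 16.5 CPM (0.17). Of 9 receptor and signalling genes, 6 were compared in macrophages, 2 of them higher and 4 lower, with a median of -0.07. The receptor chain Ifngr1 was lower in the Cd36-/- library at 98.0 and 112 CPM (-0.20, -0.24 to -0.15) and Ifngr2 higher at 62.4 and 57.2 CPM (0.12, 0.06 to 0.18). Jak1 was at 111 and 115 CPM (-0.04), Jak2 at 16.3 and 15.7 CPM (0.05), Stat3, which mediates interleukin signals, at 68.4 and 75.0 CPM (-0.13), and Ifnar2, a chain of the type I interferon receptor, at 110 and 103 CPM (0.08). Among 5 inhibitors compared, 2 were higher and 3 lower (median -0.02), among them Irf2, which opposes Irf1 at shared sites, at 182 and 184 CPM (-0.02) and the phosphatases Ptpn6 at 177 and 175 CPM (0.02) and Ptpn1 at 152 and 177 CPM (-0.22), and Socs1, which blocks Jak kinases, was too rare to compare, with 170 and 125 UMIs (0.28, -0.06 to 0.62).

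Related GTPases outside the set were mostly higher in macrophages of the Cd36-/- library, but did not all go 1 way. Ifi47 was at 32.8 and 22.3 CPM (0.56, 0.47 to 0.65), Irgm2 at 12.9 and 7.49 CPM (0.79, 0.64 to 0.94), and Tgtp2 had 113 and 38 UMIs (1.41, 0.87 to 1.98). 9930111J21Rik2 was level, at 56.1 and 55.9 CPM (0.01), and of the 9 listed genes in the files only it and Ifi47 reached 20 CPM. Gm4951 had 9.98 and 8.29 CPM (0.27, 0.11 to 0.42). Tgtp1 had 20 and 6 UMIs (1.57, 0.20 to 3.18), and F830016B08Rik had 74 and 42 UMIs (0.65, 0.09 to 1.23). Gm5431 was lower in the Cd36-/- library, with 336 and 351 UMIs (-0.23, -0.45 to -0.01), and 9930111J21Rik1 had 64 and 61 UMIs (-0.10, -0.62 to 0.43). Gbp9 had 4.74 and 3.25 CPM (0.55, 0.31 to 0.78), Gbp4 1.06 and 0.879 CPM (0.27, -0.21 to 0.76), and Gbp10 had no UMI in macrophages. Gbp8 had 82 and 51 UMIs (0.52, -0.00 to 1.05). Of 8 interferon regulatory factors other than Irf1, 7 were compared and 4 were higher (median 0.05), with Irf8, which shapes macrophage and dendritic cell fate, at 76.7 and 52.5 CPM (0.55, 0.49 to 0.60), Irf2 at 182 and 184 CPM (-0.02), Irf5 at 85.3 and 82.2 CPM (0.05) and Irf7 at 47.4 and 50.7 CPM (-0.10).

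Other genes that interferon gamma induces were higher by small amounts where they were abundant. Of 28 listed, 17 were compared in macrophages and 17 were higher (46.3% of all genes were), with a median of 0.19, and none was 1.5-fold higher. In LPM 17 of 17 (median 0.26) and in Gata6-low cells 18 of 18 (0.21) were higher, against 48.4% and 44.5% of all genes. In B-1 cells 11 of 16 (0.10) and in T cells 14 of 17 (0.14) were higher, nearer to the 53.2% and 62.4% of all genes, and in the few MHC class II macrophages 11 of 16 (0.08). NK cells had 16 of 19 higher, with a median of 0.23 that was above that of macrophages, against 54.9% of all genes. B-2 cells had 14 of 17 higher (0.11) and cDC2 11 of 16 (0.15), against 55.9% and 57.9%. The upward shift of this list was therefore not confined to macrophages. Some larger ratios stood under the limit of 20 CPM. Il18bp, which binds and blocks interleukin 18, was at 16.9 and 10.7 CPM (0.66, 0.53 to 0.79) and Cd274, the checkpoint ligand PD-L1, at 4.02 and 2.18 CPM (0.88, 0.61 to 1.16). B2m, the light chain of MHC class I, was at 4487 and 3542 CPM (0.34), H2-D1 at 3108 and 2837 CPM (0.13), H2-K1 at 1491 and 1373 CPM (0.12) and the immunoproteasome subunit Psmb8 at 340 and 275 CPM (0.31). The T cell chemokines Cxcl9 and Cxcl10 were rare, and single cells held many of their UMIs. Cxcl9 had 232 UMIs in 53 macrophages against 65 UMIs in 27, and Cxcl10 96 UMIs in 33 cells against 27 in 12, with 35 UMIs of each in 1 Cd36-/- cell (log2 ratio 1.67 for both). Ciita, the activator of MHC class II genes, was at 27.7 and 26.4 CPM (0.07, -0.02 to 0.16), and of 6 MHC class II genes 4 were higher and 2 lower (median 0.05), Cd74 at 4788 and 4523 CPM (0.08), H2-Aa at 1791 and 1826 CPM (-0.03), H2-Ab1 at 1695 and 1668 CPM (0.02) and H2-Eb1 at 1091 and 1174 CPM (-0.11). Of 9 type I interferon response genes compared, 7 were higher (median 0.11), with Zbp1 at 56.8 and 44.0 CPM (0.37), Bst2 at 151 and 141 CPM (0.11) and Ifi27l2a lower at 518 and 613 CPM (-0.24). Both lists differed by class. In LPM 6 of 6 MHC class II genes were higher (median 0.26) and 7 of 8 type I genes (0.25). In Gata6-low cells it was 4 of 6 (0.05) and 7 of 9 (0.03). In the MHC class II cluster it was 3 of 6 (0.03) and 2 of 8 (-0.28). Of MHC class II genes, 6 of 6 were higher in B-1 cells (0.21) and B-2 cells (0.17). In T cells it was 5 of 5 (0.28), in NK cells 3 of 5 (0.03) and in cDC2 0 of 6 (-0.09). Except for the MHC class II cluster, the shares of all genes higher in these classes stand above. Of 10 immediate early and handling genes in macrophages, 4 were higher and 6 lower (median -0.03), and 1, Hsph1, at least 1.5-fold lower (0.413% of all genes were). The 4 most abundant were Junb at 176 and 149 CPM (0.24), Jund at 175 and 163 CPM (0.10), Dusp1 at 148 and 149 CPM (-0.01) and Ier2 at 60.8 and 58.9 CPM (0.05).

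**Figure D5:**
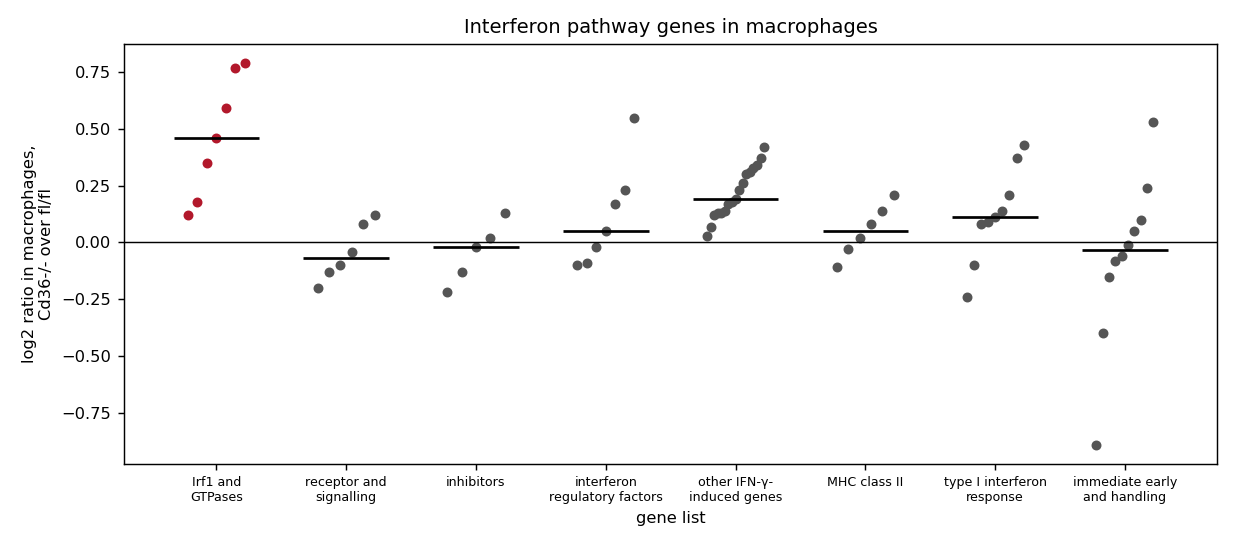
Log2 ratio (Cd36-/- over fl/fl) in macrophages of the compared genes of each list, 1 point per gene with a bar at the list's median. The members were chosen on this contrast (median 0.46), the other interferon-gamma-induced genes all lie above 0 (median 0.19), and the receptor and signalling genes centre near 0 (-0.07).

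The genes whose levels were most like those of Irf1 over 28 sums (14 cell groups in each of the 2 libraries, which share library and depth) were Ube2d3 (Pearson r = 0.88), Vps28 (0.87), Itgal (0.86), 1810058I24Rik (0.86) and Kpna4 (0.86), of 7865 genes compared. Those most like the summed GTPases were Smpdl3b (0.87), Il18bp (0.84), Mcrip2 (0.83), Lxn (0.83) and Tbc1d2b (0.82). The correlation of Irf1 was 0.51 with Igtp, 0.45 with Irgm1 and -0.61 with Gbp3, so over these sums the members did not follow Irf1 as 1 group. The neutrophil sums, set aside above, are among the 28. They held the highest Irf1 levels, on 11 and 17 UMIs, and had 0 and 2 UMIs of Gbp3. How far these correlations rest on neutrophils was not tested.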

How the data were processed

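Both libraries were made with the 10x Genomics 3′ protocol from a pool of 4 replicates, per the labels' protocols. Values as deposited are whole UMI counts, not normalized, for every gene in each barcode of at least 500 UMIs, and the file headers give software version 3.0.0. The submitters' processing notes name Cell Ranger and mm10, and the annotation release is not given in the sources used here. Positions came from GENCODE M21 (30934 of 31053 gene IDs found) and promoters from RefSeq.

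Cells with at least 200 genes and at most 10% mitochondrial UMIs were kept, Scrublet doublets removed (977 and 728, or 6.11% and 4.94%), and the rest clustered together in scanpy 1.11.5 (2000 variable genes without the members and most listed genes, 40 components, 20 neighbours, Leiden resolution 1 with leidenalg 0.10.2, 19 clusters). Clusters were named from markers, 1 mixed cluster was split by its sub-clusters, and 2.86% and 2.19% of cells stayed unnamed. Counts were summed over the cells of a class in each library. Intervals are exact Poisson for CPM, conditional binomial for ratios and Clopper-Pearson for shares. Genes with at least 20 CPM in 1 library were compared. The ratio and interval steps were run on simulated counts with counting error alone. That run checks the arithmetic and holds no spread between mice or preparations.

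The members, lists and measures were chosen with earlier results of these data known. The text names all members, the most abundant genes of each list in macrophages, further pathway genes and the 5 most similar genes. Hsph1, Hspa1a, Dnajb1, Atf3, Il18bp (as a list gene), Cd274, Gm5431, 9930111J21Rik1, Tgtp1, F830016B08Rik and Gbp8 were picked after their values were seen. One listed signalling gene is not reported here.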

Additional observations from a re-analysis of the deposited data

Results flagged for a closer look

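Several members went in opposite directions in different cell classes, each with an interval on its own side of 0, and the difference between the classes was not tested. Gbp7 was lower in the Cd36-/- library in B-1 cells (log2 ratio -0.69) and in T cells (-0.52) and higher in LPM (0.20). Gbp3 was lower in B-1 cells (-0.32) and higher in Gata6-low macrophages (0.24), and Gbp2 was lower in B-1 cells (-0.27) and higher in Gata6-low macrophages (0.68). The summed GTPases were lower in B-1 cells (-0.34) and higher in Gata6-low macrophages (0.49).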

How the results depend on the processing

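Of the ratios recomputed (all members and their sum in macrophages, Irf1 and the sum in 7 other classes, and 7 further ratios, among them Gbp2, Gbp3 and Gbp7 in B-1 cells, but none of a single cluster), none whose interval excluded 0 reversed, over other filters, clusterings, scalings and weightings and 4 alternatives chosen after seeing the data. In macrophages Irf1 ranged from 0.68 to 0.82 and the summed GTPases from 0.37 to 0.47. With macrophage clusters weighted equally, Irf1 was 0.68, the GTPase sum 0.37 and the members' median 0.39. The GTPase sum was 0.46 with TMM scaling, 0.45 with equal weight per cell and 0.47 without the Alox15 cluster, where the median was 0.63. Leaving out that cluster, whose summed GTPases were lower in the Cd36-/- library, was chosen after its values were seen. The median was 0.53 at a limit of 5 CPM and 0.60 with no limit. The count of members at least 1.5-fold higher was 6 of 10 with no limit (12.7% of all genes were), 0 at 2-fold (0.0435%), and 2 both with doublets kept (0.218%) and with clusters weighted equally (0.237%). With free RNA subtracted, the GTPase sum in B-1 cells was -0.45. That subtraction was not run for cDC2, where B cell UMIs sat in a subset of cells. The gap between the libraries in the share of macrophages with a UMI was 7.50 points for Irf1 and 3.80 for any GTPase, and 3.08 and 8.30 points after thinning. The log2 ratio of LPM over B-1 cells in the summed GTPases was 1.01, with 1.33 from Cd36-/- cells alone and 0.69 from fl/fl cells alone. No paired analysis was possible because there was 1 library per group. With 1 pool per group, genotype and every difference between the 2 preparations cannot be told apart.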

Other observations

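Socs1, which is induced by interferon gamma and other cytokines and blocks Jak kinases, went against Irf1 in B-1 cells. It had 57 UMIs in the Cd36-/- library (6.12 CPM) and 339 UMIs in the fl/fl library (21.1 CPM), a log2 ratio of -1.79 (-2.22 to -1.38), in 54 of 1473 cells (3.67%) and 276 of 2054 cells (13.4%). In T cells Socs1 was at 36.9 and 53.8 CPM (-0.54, -0.98 to -0.11), and in B-2 cells it had 11 and 26 UMIs (-0.41, -1.57 to 0.66).

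Gbp6 had 14 UMIs in T cells of the Cd36-/- library, each in its own cell, and 3 in those of the fl/fl library. Cxcl9 had 31 UMIs in cDC2 of the Cd36-/- library, 18 of them in 1 cell, and 9 in those of the fl/fl library, 8 of them in 1 cell.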
